A study of Mus musculus with 12 samples.

Results

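Tuft cell genes were described as the 9 rows of the deposited mouse small intestine table whose symbols are Pou2f3, Il17rb, Trpm5, Dclk1, Matk, Sh2d6, Avil, Alox5ap and Ptgs1. All 9 were among the 16942 genes of the table, and all 9 passed the filter on low counts that left 12329 genes for testing. Intestine from ICR mice, an outbred strain, was sequenced in 12 libraries that fall into 4 groups of 3. The groups were AOS0 (no busulfan, AOS at 0), AOS10 (no busulfan, AOS at 10), B+A0 (busulfan, AOS at 0) and B+A10 (busulfan, AOS at 10). Busulfan, an alkylating agent, forms cross-links in DNA. The labels do not spell out AOS, and the sources used here do not give its unit and route, the ages of the mice or the time after treatment. Nothing in the labels states that each library is its own animal, and the p-values below therefore speak only to the spread among these 12 libraries.

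Tuft cells are rare chemosensory cells of the intestinal epithelium. They sense luminal signals through a taste-like cascade that ends in the cation channel TRPM5, and they release interleukin 25, lipid mediators made from arachidonic acid, and acetylcholine. In the small intestine they are best known for the circuit in which interleukin 25 activates group 2 innate lymphoid cells, whose interleukin 13 acts back on epithelial progenitors. The transcription factor POU2F3 is required for tuft cells to form.

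The 9 genes, all protein-coding, cover these roles; their positions are given below from RefSeq on build GRCm38.p6. Pou2f3 encodes the lineage regulator, and Il17rb a subunit of the receptor for interleukin 25. Trpm5 encodes the channel. Dclk1 encodes a microtubule-associated kinase much used as a tuft cell marker in mice, and Matk a kinase that phosphorylates Src family kinases. Sh2d6 encodes a protein with an SH2 domain, and Avil encodes advillin, an actin-binding protein related to villin. Alox5ap encodes the protein that presents arachidonic acid to 5-lipoxygenase at the start of leukotriene synthesis, and Ptgs1 encodes cyclooxygenase 1, at the start of prostaglandin synthesis. Matk, Ptgs1, Alox5ap and Il17rb are also known from leukocytes, and the other 5 less so.

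Of the 9 genes, 7 had entries in the RefSeq promoter table (build GRCm38.p6), which gives 250 bases before and 50 bases after a start site. Pou2f3 and Alox5ap were not matched. The windows of the 4 genes whose level passed the test for busulfan below are shown, because the results turn on these genes. They are Trpm5 at chr7:143094593-143094892 on the minus strand, and Matk at chr10:81252685-81252984, Avil at chr10:127000459-127000758 and Ptgs1 at chr2:36230176-36230475 on the plus strand. The start sites used for Avil and Ptgs1 lie inside the annotated gene, downstream of its first base. Matk has a further window, from 81257049 to 81257348 on chromosome 10, which is not printed. Each is written 5′ to 3′ on the strand of its gene, and capitals mark TTTGCAT or its reverse complement ATGCAAA.
Trpm5: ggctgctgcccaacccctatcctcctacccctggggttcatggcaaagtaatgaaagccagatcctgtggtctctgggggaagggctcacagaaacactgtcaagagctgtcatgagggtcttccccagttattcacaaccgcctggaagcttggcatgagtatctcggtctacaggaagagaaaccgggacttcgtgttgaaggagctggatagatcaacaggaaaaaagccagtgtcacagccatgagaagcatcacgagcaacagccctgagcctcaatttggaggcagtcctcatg
Matk: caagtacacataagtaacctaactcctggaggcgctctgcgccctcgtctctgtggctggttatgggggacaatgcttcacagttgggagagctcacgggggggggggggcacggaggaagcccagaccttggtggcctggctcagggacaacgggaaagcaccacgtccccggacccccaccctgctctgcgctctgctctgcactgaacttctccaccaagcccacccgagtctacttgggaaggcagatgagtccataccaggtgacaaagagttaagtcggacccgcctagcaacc
Avil: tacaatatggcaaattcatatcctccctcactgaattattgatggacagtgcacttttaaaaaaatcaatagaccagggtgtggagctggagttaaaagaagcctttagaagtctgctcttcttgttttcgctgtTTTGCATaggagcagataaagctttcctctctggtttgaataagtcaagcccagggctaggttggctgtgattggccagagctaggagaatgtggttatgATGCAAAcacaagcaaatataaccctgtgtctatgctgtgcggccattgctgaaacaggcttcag
Ptgs1: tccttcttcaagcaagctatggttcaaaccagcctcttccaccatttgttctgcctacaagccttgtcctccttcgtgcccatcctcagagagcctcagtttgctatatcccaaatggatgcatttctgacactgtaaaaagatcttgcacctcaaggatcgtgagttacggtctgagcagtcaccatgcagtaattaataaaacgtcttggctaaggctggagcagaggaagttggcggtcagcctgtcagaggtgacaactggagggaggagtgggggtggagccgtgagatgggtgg

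POU domain factors bind the octamer ATTTGCAT. On both strands (ATTTGCAT or ATGCAAAT), that octamer was in 0 of the 9 windows of the 7 matched genes and in 570 of 32851 promoters of the same length in the table (1.74%). The 7-letter core TTTGCAT or ATGCAAA, whose matches include every octamer match, was tried after the octamer had been counted. It was in 1520 of the 32851 promoters (4.63%) and in 1 of the 9 tuft gene windows, that of Avil. Its matches there began 115 and 15 bases upstream of the start site (positions -115 and -15). These are matches of letters and not measured binding sites.

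All 9 genes were at low levels. Their counts ran from 4 (Ptgs1 in B+A10 replicate 2, 95% Poisson interval 1.09 to 10.2) to 169 (Trpm5 in AOS10 replicate 3, 144 to 196), against library totals of 13560232 to 16818245. Such intervals cover counting error only. By mean FPKM, a level scaled to gene length and library size, between 30.1% (Ptgs1) and 43.2% (Sh2d6) of the genes in the table lay below them. In AOS0 the order of levels in FPKM began with Sh2d6 at 3.58 ± 0.17 (SD, n = 3), followed by Alox5ap at 2.50 ± 0.54, Trpm5 at 2.33 ± 0.23 and Avil at 1.88 ± 0.31. Lower in the order stood Il17rb at 0.943 ± 0.13, Matk at 0.907 ± 0.075, Ptgs1 at 0.633 ± 0.22, Pou2f3 at 0.617 ± 0.25 and Dclk1 at 0.547 ± 0.061. Neighbours in this order overlapped over the 3 libraries, except that Sh2d6 lay above Alox5ap, Trpm5 above Avil, and Avil above Il17rb. In B+A0 the order opened with Trpm5 at 1.57 ± 0.38 FPKM and Alox5ap at 1.53 ± 0.61, and Sh2d6 came next at 1.17 ± 0.50; these ranges overlapped. Ptgs1 was at the end of the order in both groups with busulfan, at 0.197 ± 0.10 in B+A0 and 0.117 ± 0.031 in B+A10.

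On average, libraries with busulfan had a lower summed level of the 9 tuft genes than libraries without it. The summed level of the 9 genes in CPM (counts relative to library size, after TMM scaling between libraries) was 29.7, 30.4 and 29.8 in AOS0, and 14.7, 19.2 and 15.7 in B+A0. It was 27.2, 17.0 and 40.3 in AOS10, and 16.0, 16.4 and 15.0 in B+A10. The AOS0 libraries all lay above the B+A0 libraries. The AOS10 libraries all lay above the B+A10 libraries too, but AOS10 replicate 2 fell inside the range of B+A0. The mean sum in B+A0 was 55.3% of that in AOS0, and in B+A10 it was 56.0% of that in AOS10. In whole-tissue RNA, fewer cells of a type and less RNA per cell cannot be told apart.

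**Figure D1:**
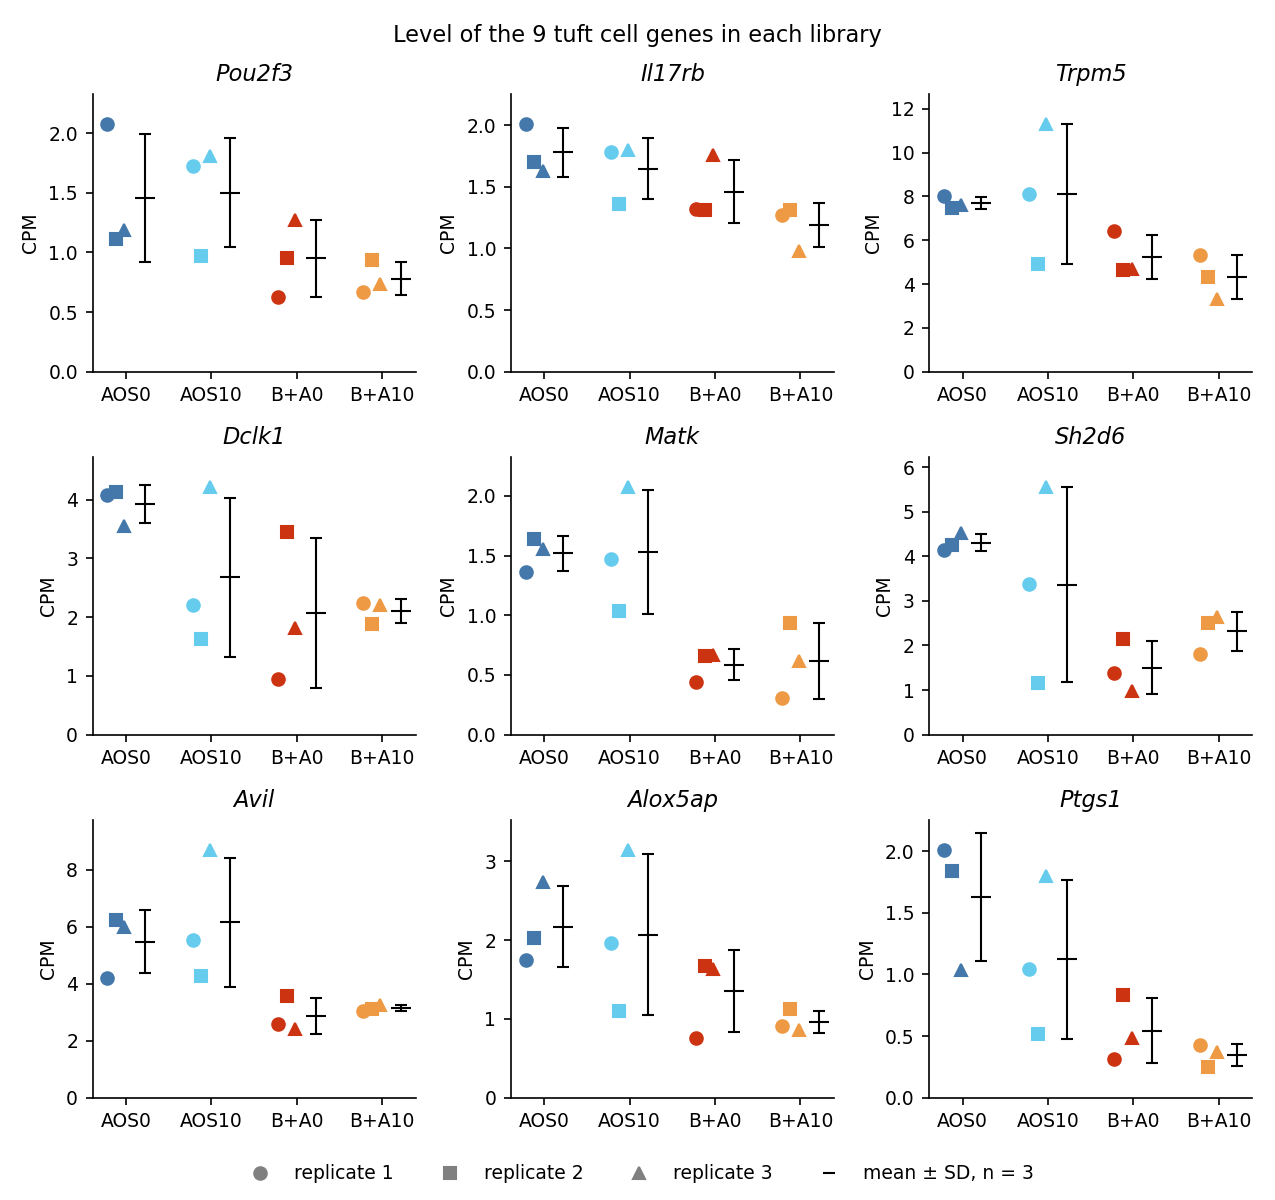
Level in CPM (y axis, from 0) of each of the 9 tuft cell genes in the 12 libraries, by group (x axis). Points are libraries, with the shape giving the replicate number, and bars are the mean ± SD of 3 libraries. In every panel AOS10 replicate 3 is the highest and replicate 2 the lowest of the AOS10 libraries, and the busulfan libraries of Avil and Matk all lie below the libraries without busulfan.

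To compare intestine with and without busulfan at both AOS levels, the 6 busulfan libraries were compared with the 6 others, as the mean of the contrasts B+A0 against AOS0 and B+A10 against AOS10. In this comparison 4 of the 9 tuft genes fell (Avil, Matk, Ptgs1 and Trpm5) and none rose, by edgeR's quasi-likelihood test with Benjamini-Hochberg adjustment over all genes. Of all 12329 genes tested, 6.03% were called: 2.73% of the 12329 were lower and 3.3% higher. Limma on log2(FPKM + 1) split its calls the other way, with 456 genes lower and 241 higher, where edgeR had 336 and 407. All 9 tuft genes had an estimate below 0, as did 50% of all genes, and an unadjusted p under 0.05, against 11.3% of all genes that were lower at that unadjusted p. Their median log2 fold change was -0.88, and that of all genes was 0.00038. Genes of 1 cell type can move together, so the 9 are not 9 separate observations. They were also chosen with earlier results of these data known.

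Avil, the actin bundler (chr10:127000065-127020994), stood at 4.21, 6.23 and 5.99 CPM in AOS0 and at 5.53, 4.28 and 8.68 CPM in AOS10. With busulfan it stood at 2.57, 3.57 and 2.43 CPM in B+A0 and at 3.03, 3.13 and 3.25 CPM in B+A10. Every busulfan library lay below every library without busulfan, a separation that 1.19% of all genes showed in this direction and that Avil shared with Matk among the 9. The log2 fold change of Avil was -0.95 (SE 0.19, adjusted p = 0.0156, edgeR), a fold of 0.517. The estimates in the single comparisons were close to each other, at -0.93 for B+A0 against AOS0 and -0.97 for B+A10 against AOS10.

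Matk, the kinase that acts on Src family kinases (chr10:81252935-81262985), stood at 1.36, 1.64 and 1.55 CPM in AOS0 and at 1.47, 1.04 and 2.07 CPM in AOS10. It stood at 0.439, 0.655 and 0.667 CPM in B+A0 and at 0.303, 0.938 and 0.613 CPM in B+A10. The highest busulfan library, B+A10 replicate 2, lay just under the lowest library without busulfan, AOS10 replicate 2. The log2 fold change of Matk was -1.33 (SE 0.27, adjusted p = 0.0181, edgeR), a fold of 0.399, from counts of 5 to 31 in a library. Without AOS10 replicate 3 the adjusted p was 0.0544.

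Ptgs1, which encodes cyclooxygenase 1 (chr2:36216742-36258593), had the lowest fold of the 9. It stood at 2.01, 1.84 and 1.04 CPM in AOS0 and at 1.04, 0.518 and 1.80 CPM in AOS10. With busulfan it stood at 0.314, 0.834 and 0.485 CPM in B+A0 and at 0.424, 0.250 and 0.368 CPM in B+A10. AOS10 replicate 2 overlapped the busulfan libraries, and the other libraries without busulfan lay above all of them. The log2 fold change was -1.61 (SE 0.35, adjusted p = 0.0224, edgeR), a fold of 0.327, with counts of 4 to 31 in a library. The adjusted p rose to 0.0570 without AOS0 replicate 1, to 0.0637 without AOS10 replicate 3 and to 0.0590 without B+A0 replicate 3.

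Trpm5, the channel gene (chr7:143071529-143094642), had the highest counts of the 9. It stood at 8.03, 7.48 and 7.62 CPM in AOS0 and at 8.11, 4.92 and 11.3 CPM in AOS10. It stood at 6.40, 4.65 and 4.67 CPM in B+A0 and at 5.34, 4.31 and 3.31 CPM in B+A10. The AOS0 libraries lay within a narrow band above all busulfan libraries, and AOS10 replicate 2 lay among the busulfan libraries. The log2 fold change was -0.73 (SE 0.19, adjusted p = 0.0419, edgeR), a fold of 0.602. This call was close to the threshold: it held in 2 of the 12 fits that each left out a library, with adjusted p from 0.0216 to 0.0986.

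The call for Avil held in all 12 of those fits (adjusted p 0.0171 to 0.0463), that for Matk in 11 and that for Ptgs1 in 9. The number of tuft genes called was 1 without AOS10 replicate 3, 5 without AOS10 replicate 2, and 2 without either B+A0 replicate 3 or AOS0 replicate 1. With both AOS10 replicates 2 and 3 left out, a choice made after seeing the data that leaves 1 AOS10 library, 0 of the 9 were called by edgeR, 7 of the 9 had an unadjusted p under 0.05, and the median log2 fold change was -0.87. In that fit 23 of all genes were called, against 743 in the full fit.

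The 5 other tuft genes did not pass the adjusted threshold by edgeR over both AOS levels. Sh2d6, the SH2 domain gene (chr6:72513641-72534206), stood at 4.14, 4.26 and 4.51 CPM in AOS0, at 3.38, 1.17 and 5.54 CPM in AOS10, at 1.38, 2.14 and 0.970 CPM in B+A0 and at 1.82, 2.50 and 2.64 CPM in B+A10. The AOS0 libraries were tightly grouped, and AOS10 replicate 2 was lower than 5 of the 6 busulfan libraries. Its log2 fold change over both levels was -1.02 (95% interval -1.68 to -0.37, adjusted p = 0.0640, edgeR). DESeq2 called it (adjusted p = 0.0186), and so did edgeR without AOS10 replicate 2 (adjusted p = 0.0216).

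Alox5ap, the leukotriene gene (chr5:149265004-149288153), stood at 1.75, 2.03 and 2.74 CPM in AOS0, at 1.97, 1.10 and 3.14 CPM in AOS10, at 0.753, 1.67 and 1.64 CPM in B+A0 and at 0.910, 1.13 and 0.859 CPM in B+A10. AOS0 lay above B+A0, but AOS10 replicate 2 overlapped B+A10. Its log2 fold change was -0.88 (95% interval -1.48 to -0.28, adjusted p = 0.0764, edgeR).

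Pou2f3, the lineage regulator (chr9:43123927-43205755), stood at 2.07, 1.11 and 1.18 CPM in AOS0, at 1.72, 0.972 and 1.80 CPM in AOS10, at 0.627, 0.953 and 1.27 CPM in B+A0 and at 0.667, 0.938 and 0.736 CPM in B+A10. The ranges of AOS0 and B+A0 overlapped, while B+A10 lay below AOS10. Its log2 fold change was -0.77 (95% interval -1.34 to -0.21, adjusted p = 0.0919, edgeR).

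Dclk1, the kinase marker (chr3:55242303-55539068), stood at 4.08, 4.13 and 3.55 CPM in AOS0, at 2.21, 1.62 and 4.21 CPM in AOS10, at 0.941, 3.46 and 1.82 CPM in B+A0 and at 2.24, 1.88 and 2.21 CPM in B+A10. AOS0 lay above B+A0, whose replicate 2 came close to it, and AOS10 and B+A10 overlapped. Its log2 fold change was -0.63 (95% interval -1.25 to -0.0069, adjusted p = 0.207, edgeR).

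Il17rb, the interleukin 25 receptor subunit (chr14:29996168-30008896), varied least. It stood at 2.01, 1.70 and 1.63 CPM in AOS0, at 1.78, 1.36 and 1.80 CPM in AOS10, at 1.32, 1.31 and 1.76 CPM in B+A0 and at 1.27, 1.31 and 0.981 CPM in B+A10. The range of B+A0 crossed that of AOS0 through its replicate 3. Its log2 fold change was -0.38 (95% interval -0.75 to -0.00051, adjusted p = 0.211, edgeR), the smallest of the 9.

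In the single busulfan comparisons, edgeR over all 12 libraries called no tuft gene. In B+A0 against AOS0, edgeR called 0 of the 9, with 5 at an unadjusted p under 0.05, and the smallest adjusted p was 0.0677 (Matk). DESeq2 called 2 (Sh2d6 and Avil), limma 1 (Matk), and edgeR on only these groups 1 (Sh2d6). Of all genes, 3.64% were called by edgeR (239 lower, 1.94%, and 210 higher, against 322 and 133 by limma on log2(FPKM + 1)), and 10.9% were lower at an unadjusted p under 0.05. All 9 estimates were below 0, as were 51.2% of all genes, with a median of -0.91. In 7 of the 9 the B+A0 libraries all lay below the AOS0 libraries, against 14.6% of all genes; Pou2f3 and Il17rb were the exceptions. The largest estimated falls were those of Ptgs1 at -1.57 (SE 0.47), Sh2d6 at -1.52 (SE 0.44) and Matk at -1.35 (SE 0.39).

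In B+A10 against AOS10, edgeR called 0 of the 9, with 6 at an unadjusted p under 0.05, and DESeq2 and limma called 0. For Ptgs1, DESeq2 gave no adjusted p. By edgeR the smallest adjusted p was 0.215 (Avil), and 0.162% of all genes were called, 0.0162% as lower. At an unadjusted p under 0.05, 4.16% of all genes were lower. All 9 estimates were below 0, as were 49.1% of all genes, with a median of -0.94. In 5 of the 9 (Pou2f3, Il17rb, Matk, Avil and Ptgs1) the groups did not overlap, against 6.92% of all genes in this direction. The estimates for Dclk1 (-0.34, SE 0.41) and Sh2d6 (-0.53, SE 0.42) rested on AOS10 replicate 3: without it they were 0.14 and 0.029.

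**Figure D2:**
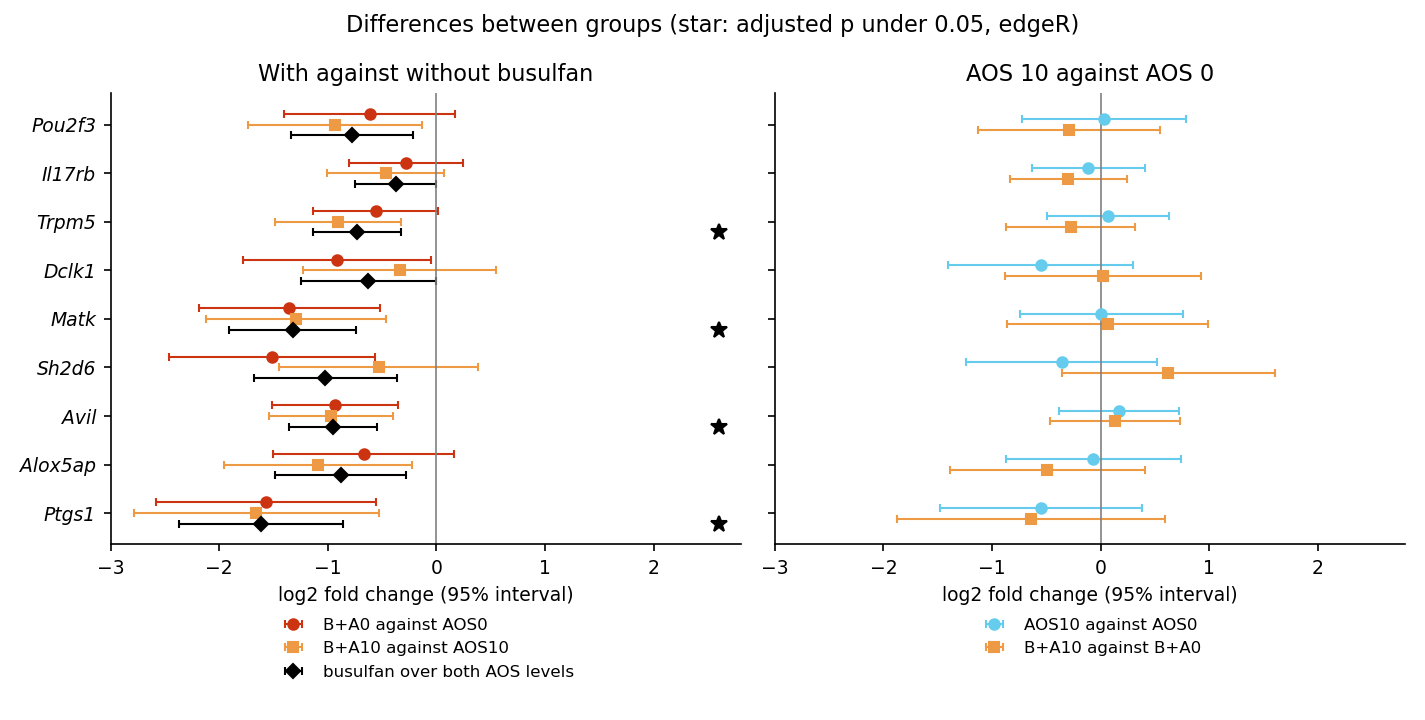
Log2 fold change (x axis, with 95% intervals) of each tuft cell gene (y axis), with against without busulfan on the left and AOS 10 against AOS 0 on the right. All busulfan estimates are below 0, stars mark the 4 genes with an adjusted p under 0.05 over both AOS levels, and every interval on the right includes 0.

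AOS itself was asked about in AOS10 against AOS0 and in B+A10 against B+A0. In AOS10 against AOS0, edgeR called 0 of the 9 tuft genes and 0% of all genes, 0 of the 9 had an unadjusted p under 0.05, and DESeq2 called 0 of the 9 and 63 of all genes. At an unadjusted p under 0.05, 3.03% of all genes were lower and 3.2% higher. Of the 9 estimates 5 were below 0 (52.2% of all genes), and they ran from -0.55 (Dclk1) to 0.17 (Avil) with a median of -0.068. The intervals stayed wide; that of Avil was -0.38 to 0.72. In B+A10 against B+A0 edgeR again called 0 of the 9 and 0% of all genes, with 0 of the 9 at an unadjusted p under 0.05, and DESeq2 called 0 of the 9 and 76 of all genes. At an unadjusted p under 0.05, 3.93% of all genes were lower and 5.89% higher. Of the 9 estimates 5 were below 0 (48.2% of all genes), and they ran from -0.64 (Ptgs1) to 0.62 (Sh2d6, 95% interval -0.35 to 1.60). The groups overlapped for all 9 genes in both comparisons. Of all genes, 9.67% lay wholly lower and 11% wholly higher in AOS10 than in AOS0, and 5.41% and 4.83% in B+A10 than in B+A0.

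Whether the busulfan difference itself changed with AOS was tested as an interaction. By edgeR 0 of the 9 tuft genes and 0% of all genes were called, and 0 of the 9 had an unadjusted p under 0.05 (2.65% of all genes did with a negative estimate and 4.19% with a positive one); DESeq2 called 0 of the 9 and 16 of all genes. The largest estimate was that of Sh2d6, at 0.98 (95% interval -0.33 to 2.30, adjusted p = 0.769, edgeR), and the median of the 9 was -0.094. These intervals do not show that the busulfan difference was equal at the 2 AOS levels. The comparisons named here share libraries, so their values are not independent of each other.

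The AOS10 libraries had 1 order in all 9 tuft genes. AOS10 replicate 3 was the highest and replicate 2 the lowest of the 3 for 9 of 9 genes, an order that 14.8% of all tested genes had. The level in replicate 3 was between 1.33 (Il17rb) and 4.75 (Sh2d6) times that in replicate 2, with a median of 2.29, whereas the median of all tested genes was 1.00. The summed level was 2.38 times as high. The same ratio was 1.05 for 5 general epithelial genes, 1.08 for 14 T and NK (natural killer) cell genes and 1.43 for 10 mast cell genes. For the further tuft lists described below it was 1.24 (chemosensory), 1.39 (eicosanoid and acetylcholine), 1.12 (regulators), 1.05 (cytoskeleton and surface) and 1.17 (shared with leukocytes), and for Paneth cell genes 0.676. Such ratios of sums follow the most abundant genes of a list. They do not show whether the low genes of these lists had the same order. The spread of the 9 genes over the libraries of a group, as chi-square over 2 degrees of freedom with a mean of 1 expected from counting noise, had a median of 7.72 in AOS10 and 2.27 in B+A0, but 0.370 in AOS0 and 0.411 in B+A10. It was above 1 for 8 of the 9 genes in AOS10, 7 in B+A0, 4 in AOS0 and 3 in B+A10, and counting noise alone puts some genes above 1. For Il17rb in AOS10 it was 0.583, so the AOS10 libraries differed by no more than counting noise in that gene. The share of all genes above 1 was not taken. Over all genes, the chi-square per degree of freedom between 2 libraries of a group was 8.69 to 16.9 in AOS10. That range was 11.6 to 22.2 in AOS0, 15.1 to 36.5 in B+A0 and 15.7 to 37.3 in B+A10. AOS10 was thus not the group with the widest spread over all genes.

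**Figure D3:**
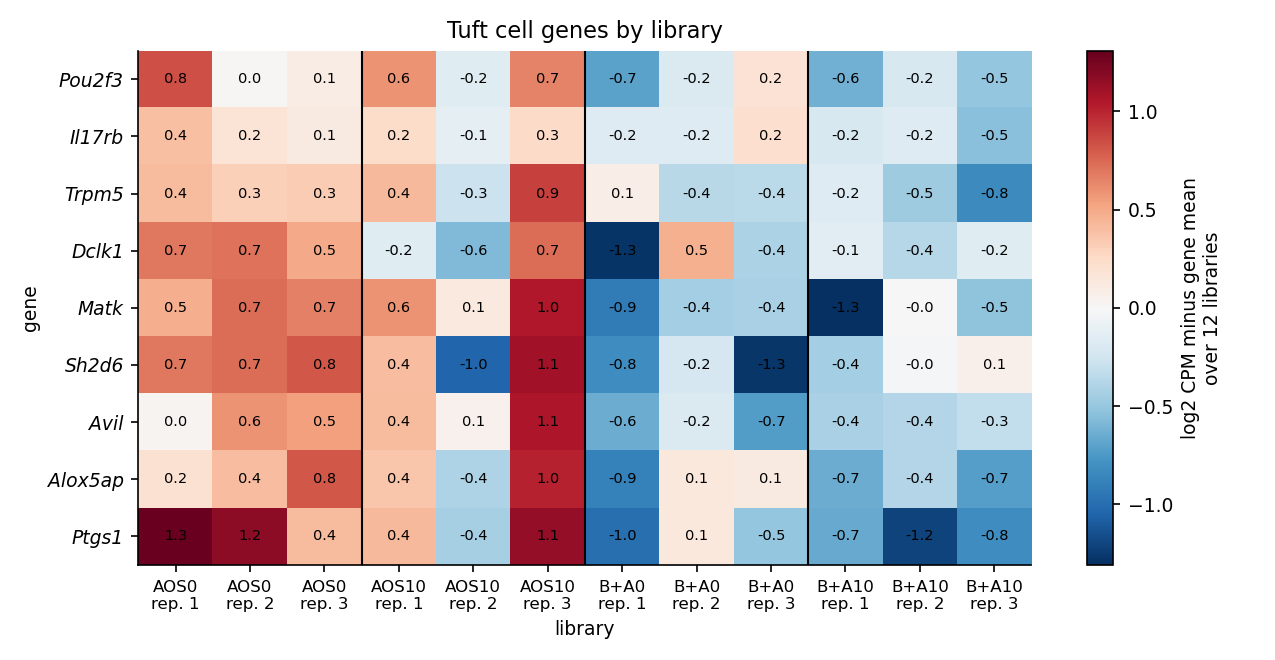
Log2 CPM of each tuft cell gene (rows) in each of the 12 libraries (columns), minus the mean of the gene over the 12 libraries; red is above and blue below that mean. The AOS0 columns are red or near white, AOS10 replicate 2 is blue or near white and AOS10 replicate 3 is red, and most busulfan cells are blue.

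Correlation between the 9 genes was examined within the libraries without and with busulfan. Over the 6 libraries without busulfan, the 36 pairs of genes had a median Pearson r of 0.75 and a median Spearman rho of 0.51, and all 36 r were above 0. None passed after adjustment over the 36 pairs (smallest adjusted p = 0.0857, exact permutation test). This rested on AOS10 replicates 2 and 3: over the other 4 libraries the median r was -0.14 and 17 of the 36 were above 0. Over the 6 busulfan libraries the median r was 0.19, with 21 of 36 above 0, and none passed (smallest adjusted p = 0.350, exact permutation test).

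Further tuft cell genes were taken from 5 lists of 58 genes, of which 55 were in the table and 41 could be tested. The lists were chosen with earlier results of these data known, so their counts are a description. Over both AOS levels 8 of the 41 fell with busulfan and none rose, 37 of the 41 estimates were below 0, and the median was -0.59, against 2.73% lower, 3.3% higher and 50% below 0 among all genes. In B+A0 against AOS0 the figures were 4 called lower (all genes 1.94%), 35 below 0 (51.2%) and a median of -0.71. All 4 of those calls, and 5 of the 8 over both levels, were on the list of genes that leukocytes share. Genes called from the other lists, such as Gfi1, can be expressed by leukocytes too. In B+A10 against AOS10 edgeR called 0, with 8 at an unadjusted p under 0.05 and lower (all genes 4.16%), 34 below 0 (49.1%) and a median of -0.20.

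Of the 6 tested chemosensory genes, 1 fell over both levels. This was Plcb2, the phospholipase C upstream of TRPM5, at -1.09 (adjusted p = 0.0408, edgeR), from 2.43 ± 0.27 CPM in AOS0 and 2.50 ± 1.19 in AOS10 to 1.05 ± 0.54 in B+A0 and 1.25 ± 0.34 in B+A10. The more broadly expressed Plcg2 and Itpr2 had estimates of 0.12 and -0.099, and Rgs13, a regulator of G protein signalling, -0.45; none of these was called. Gnat3, the taste G protein subunit, had 8 counts over all 12 libraries, and Sucnr1, the succinate receptor, had 43, so neither was tested.

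Among 5 tested regulators Gfi1 fell, at -0.78 (adjusted p = 0.0110, edgeR). Gfi1 is a transcriptional repressor of secretory epithelial cells and of leukocytes. It stood at 7.51 ± 0.87 CPM in AOS0, 7.59 ± 1.76 in AOS10, 4.47 ± 0.046 in B+A0 and 4.33 ± 0.90 in B+A10. Atoh1, the regulator of secretory fate, was at -0.11 and Sox4 at -0.18, and neither was called. Gfi1b, with 58 counts in all, was not tested.

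Of the 3 tested genes for eicosanoids and acetylcholine 0 were called over both levels by edgeR, with 2 at an unadjusted p under 0.05; Alox5, 5-lipoxygenase, was at -1.04 (adjusted p = 0.0765), Ltc4s, leukotriene C4 synthase, at -0.58 and Pla2g4a, cytosolic phospholipase A2, at -0.022. Chat, which makes acetylcholine, had 17 counts in all, and Hpgds, a prostaglandin D synthase, had 68. Of 15 tested genes for cytoskeleton and surface, Lrmp fell, at -1.14 (adjusted p = 0.0400, edgeR), and the widely expressed Krt18, Cd24a and Bpgm were at 0.015, -0.0053 and -0.13.

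Of 12 tested tuft genes that leukocytes share, 5 fell over both levels. Among them were Fyb, an adaptor, at -0.94, Rac2, a small GTPase, at -0.93, Inpp5d, an inositol phosphatase, at -0.90 and Pik3r5, a PI3-kinase subunit, at -0.72. In B+A0 against AOS0 the median of these 12 was -1.21, and in B+A10 against AOS10 it was -0.18. Pik3cg, the catalytic partner of Pik3r5, fell in B+A0 against AOS0 at -1.53 (adjusted p = 0.0431, edgeR) and was at -0.079 in B+A10 against AOS10. Skap2, Ptpn18 and Ptpn6 were not called in any of these comparisons.

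**Figure D4:**
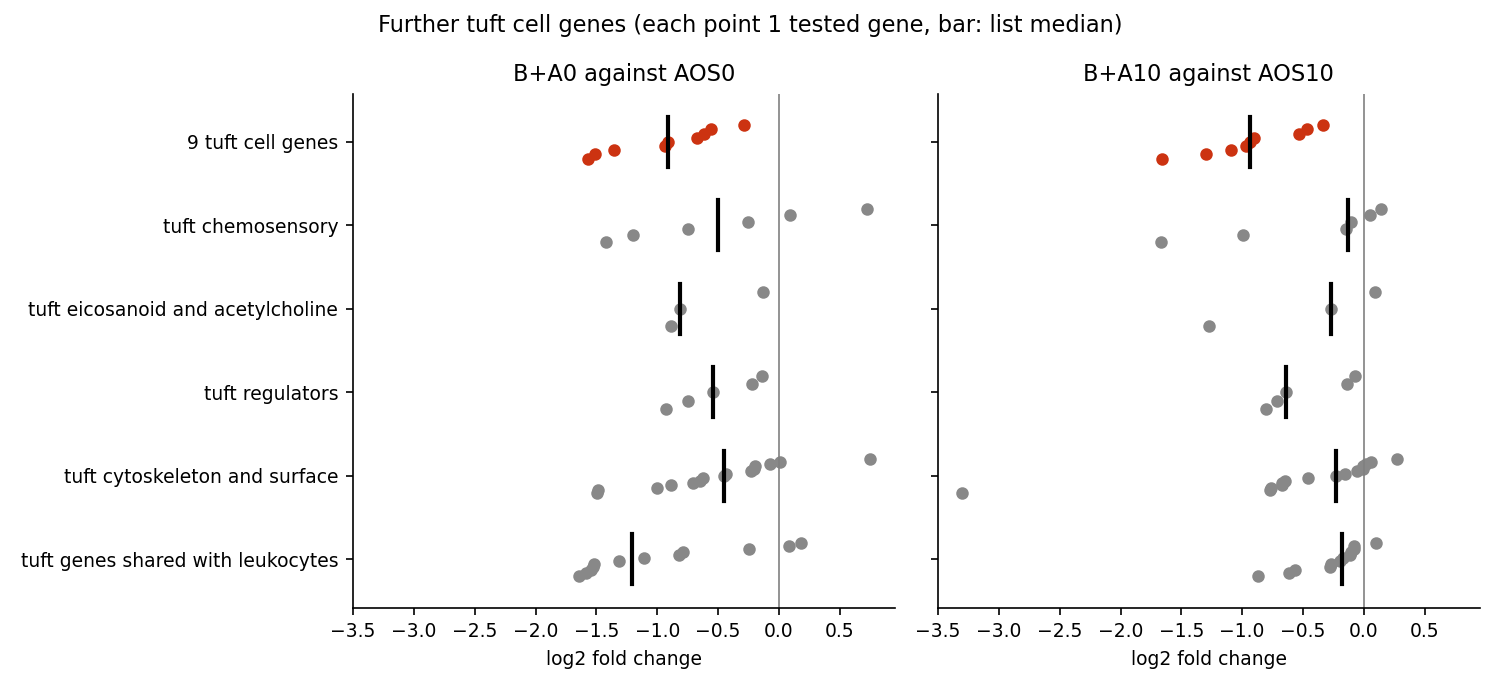
Log2 fold change (x axis) of each tested gene of the 9 tuft cell genes (red) and of 5 further tuft cell lists (grey), in B+A0 against AOS0 (left) and B+A10 against AOS10 (right); black bars are medians. The 9 genes are below 0 in both panels with medians of -0.91 and -0.94, and the genes shared with leukocytes have medians of -1.21 on the left and -0.18 on the right.

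Of 15 genes of the type 2 circuit around tuft cells, 14 were in the table and 8 could be tested. Il25, the tuft cell cytokine, had 4 counts over the 12 libraries, and Il13 and Il5 had 1 each. Of the 8 tested, Il17re, a receptor subunit for interleukin 17C, fell in B+A0 against AOS0, at -1.66 (adjusted p = 0.0340, edgeR), and was at -0.031 in B+A10 against AOS10. None passed over both levels by edgeR, with 1 at an unadjusted p under 0.05. Retnlb, an effector of goblet cells, was at 0.39 in the former comparison and -0.30 in the latter, and was called in neither.

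Leukocyte markers moved with busulfan as well, and their values stand here beside those of the tuft genes. The summed level of 14 T and NK cell genes ran from 175 to 300 CPM in AOS0, 162 to 209 in AOS10, 42.7 to 111 in B+A0 and 104 to 283 in B+A10. That of 10 mast cell genes ran from 66.1 to 148 CPM in AOS0, 66.9 to 95.4 in AOS10, 23.3 to 26.7 in B+A0 and 26.6 to 50.1 in B+A10. Of 13 tested T and NK cell genes 9 were called lower in B+A0 against AOS0 (all genes 1.94%), and none in B+A10 against AOS10 (all genes 0.0162%; edgeR, 1 at an unadjusted p under 0.05 and lower). Of 5 tested mast cell genes 5 and 0 were called, the latter with 4 at an unadjusted p under 0.05. Over both AOS levels, where the tuft genes were called, 5 of the 13 T and NK cell genes and 5 of the 5 mast cell genes were called lower (all genes 2.73%). No gene of either list was at 0 over all libraries.

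Set against AOS0, the T and NK cell sum in B+A0 was 28.7%, and set against AOS10 that in B+A10 was 96.3%. The corresponding shares for the 5 tuft genes less known from leukocytes were 55.2% and 58.1%, and for the 4 that leukocytes share they were 55.6% and 49.0%. Mast cell genes were at 25.0% and 44.9%, 5 general leukocyte genes at 32.0% and 89.9%, and macrophage genes at 101% and 90.7%. The macrophage sum did not show the single genes: in B+A0 against AOS0, 4 of 6 tested were below 0 and 2 above. Their median log2 fold change there was -0.84, and 1 was called lower by edgeR (all genes 1.94%). In B+A10 against AOS10, 2 of the 6 were below 0, with a median of 0.037. The general epithelial genes were at 98.1% and 99.6%. The T and NK cell sums in B+A10 were 104, 283 and 139 CPM, so the share of 96.3% leaned on replicate 2. The share of 89.9% for general leukocyte genes did so too (25.6, 58.3 and 29.2 CPM). In the interaction, edgeR called 0 of the 13 tested T and NK cell genes. At an unadjusted p under 0.05, 12 of them had a positive estimate (all genes 4.19%). B+A10 replicate 2, the busulfan library with the highest T and NK cell sum (283 CPM), had a tuft gene sum of 16.4 CPM, between the 15.0 and 19.2 CPM of other busulfan libraries. The part of leukocyte RNA in the tuft gene difference was not tested.

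**Figure D5:**
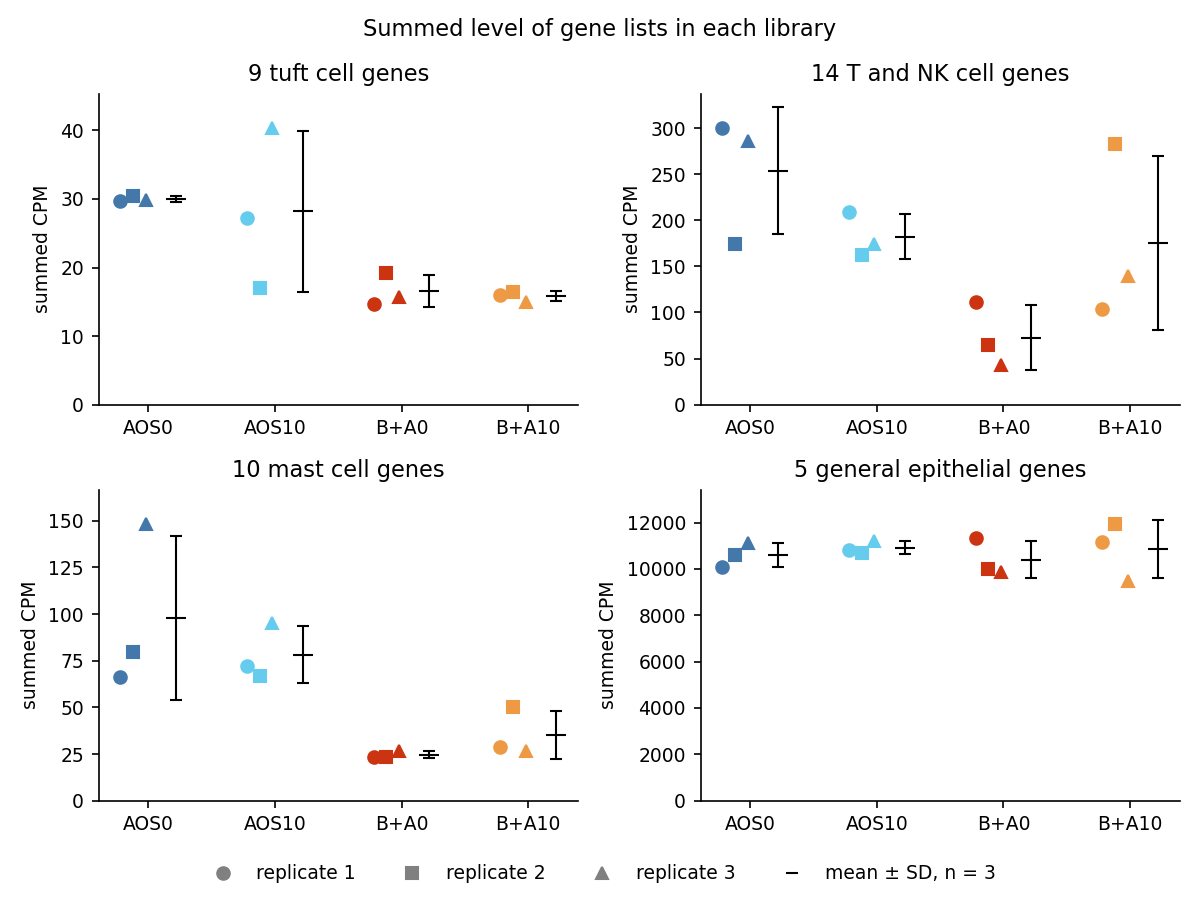
Summed level in CPM (y axes, from 0, each with its own scale) of the 9 tuft cell genes, 14 T and NK cell genes, 10 mast cell genes and 5 general epithelial genes in each library, by group (x axis); bars are the mean ± SD of 3 libraries. Tuft cell genes are lower in both busulfan groups, T and NK cell genes are lowest in B+A0 and reach 283 CPM in B+A10, and the epithelial genes lie between 9503 and 11938 CPM.

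The same shares were taken for other epithelial lineages. Goblet cell genes in B+A0 stood at 83.9% of AOS0 and in B+A10 at 86.3% of AOS10, enteroendocrine genes at 84.5% and 76.7%, and enterocyte genes at 85.3% and 92.3%. Stem cell genes stood at 87.2% and 99.2%, and Paneth cell genes at 149% and 126%. The sums of the further tuft lists were nearer to these shares than to those of the 9 genes: chemosensory genes stood at 96.0% and 104%, cytoskeleton and surface genes at 95.4% and 94.3%, regulators at 82.9% and 85.8%, eicosanoid and acetylcholine genes at 79.6% and 91.2%, and genes shared with leukocytes at 77.1% and 91.8%. The share of about 55% is thus that of the 9 chosen genes. These are sums over few, very unequal genes, and the differences between lists were not tested. By gene over both AOS levels, edgeR called 1 of 10 enteroendocrine and 1 of 8 goblet genes lower (all genes 2.73%). Their medians were -0.27 and -0.18, with 9 of the 10 and 7 of the 8 below 0 (all genes 50%). All 7 tested Paneth genes were above 0. In B+A0 against AOS0, 2 of the 10 enteroendocrine and 0 of the 8 goblet genes were called lower (all genes 1.94%).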

How the data were processed

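The deposited table held, per the file headers, read counts and expression values for 12 libraries; it covers 16942 genes. Reads were mapped to a genome whose build the submitters' processing notes give as mm10; which aligner, counter, annotation or strand setting was used is not stated in the sources used here. These read counts were taken to be expected counts (estimated counts), since 8.90% to 9.33% of the deposited values were not whole (tolerance 1e-06), and were rounded. The deposited expression values name no unit and were taken as FPKM. Groups came from the labels.

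Low genes were removed with filterByExpr, using the groups; libraries were scaled by TMM (factors 0.969 to 1.05) and compared in 1 edgeR 4.0.16 quasi-likelihood model (R 4.3.3) over 6 contrasts, with Benjamini-Hochberg adjustment at 0.05 over 12329 genes. Each SE is the estimate divided by the square root of F. The test code was run on simulated data with known changes. This checks the code and does not show how well changes are found at the levels of the 9 genes. Replicates differed beyond counting noise (chi-square per degree of freedom 8.69 to 37.3). The 9 genes and all lists were chosen with earlier results of these data known. Named genes of the further tuft lists are those called in any comparison and the 3 with the highest mean FPKM; others are named as examples, and a gene that these rules name is not reported here. Promoters and coordinates are from RefSeq GRCm38.p6. Alternatives were DESeq2 1.42.0 and its size factors, limma 3.58.1 on log2(FPKM + 1) and log2(FPKM + 0.1), other filters, only the compared groups, a replicate block and leaving out libraries. Correlations used scipy 1.17.1 and figures matplotlib 3.10.9.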

Additional observations from a re-analysis of the deposited data

How the results depend on the processing

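For busulfan over both AOS levels, all 170 estimates of tuft genes over the alternatives were below 0, as were 125 of 125 in B+A0 against AOS0 and 122 of 124 in B+A10 against AOS10, the exceptions being Sh2d6 and Dclk1 without AOS10 replicate 3. The number of tuft genes called over both levels was 3 with the replicate block, by limma or with a filter of a mean of 1 CPM (Ptgs1 then not tested), 5 by DESeq2, 1 to 5 with 1 library left out, and 0 without AOS10 replicates 2 and 3. In B+A0 against AOS0 it was 1 in the fit of only those groups, 1 by limma with either pseudocount and 2 by DESeq2; in this and the 4 other comparisons it was 0 to 0 with 1 library left out. Limma with a pseudocount of 1 gave medians of -0.44, -0.32 and -0.46 in B+A0 against AOS0, in B+A10 against AOS10 and over both levels. Values that changed sign with a pseudocount of 1 were, in AOS10 against AOS0, Pou2f3 at -0.0033 and Matk at -0.027, in B+A10 against B+A0 Dclk1 at -0.029, and in the interaction Avil at 0.0026 and Ptgs1 at 0.12. With a pseudocount of 0.1 they were Trpm5 at -0.0030 and Matk at -0.072, Dclk1 at -0.023, and Avil at 0.057 and Ptgs1 at 0.18. With 1 library left out, ranges that crossed 0 were, in AOS10 against AOS0, Pou2f3 -0.13 to 0.38, Il17rb -0.18 to 0.0096, Trpm5 -0.24 to 0.33, Matk -0.26 to 0.22, Sh2d6 -0.91 to 0.049, Avil -0.15 to 0.37 and Alox5ap -0.49 to 0.23. In B+A10 against AOS10 they were Dclk1 -0.59 to 0.14 and Sh2d6 -0.93 to 0.029, in B+A10 against B+A0 Dclk1 -0.32 to 0.60 and Matk -0.35 to 0.39, and in the interaction Matk -0.36 to 0.38, Avil -0.24 to 0.29, Alox5ap -0.72 to 0.0025 and Ptgs1 -0.43 to 0.41. Over all genes, calls with 1 library left out ran from 21 to 1099 in B+A0 against AOS0, 0 to 61 in B+A10 against AOS10, 0 to 13 in AOS10 against AOS0, 0 to 51 in B+A10 against B+A0, 0 to 1 in the interaction and 250 to 1395 over both levels. DESeq2 called 995, 137, 63, 76, 16 and 1244 genes in these 6 comparisons. With the replicate block, calls over all genes were 193, 3, 15 and 4 in the first 4 and 386 over both levels, and Trpm5 over both levels had an adjusted p of 0.0576 (edgeR). Same-numbered libraries did not deviate together (r -0.16 to 0.17), and 3 of 12 libraries correlated best with their own number, so the numbers are not taken to pair samples. With no filter beyond 1 count, 40, 8 and 5 genes were called in B+A10 against AOS10, AOS10 against AOS0 and B+A10 against B+A0. Fits of only the compared groups called 241, 0 and 62 in B+A0 against AOS0, B+A10 against AOS10 and AOS10 against AOS0. Limma called 2 (pseudocount 1) and 7 (0.1) in B+A10 against AOS10, and leaving out both AOS10 replicates called 1 there and 23 over both levels. With a pseudocount of 0.1 limma called 469 genes lower and 250 higher over both levels. The causes of these changes were not tested. Counts under about 30 in many libraries limit what can be seen for Matk, Ptgs1, Pou2f3, Il17rb and Alox5ap. Sh2d6 and Dclk1 also fell below that in some libraries, with lowest counts of 16 and 15.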

Other observations

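Among the 10 tested genes outside the 9 whose level followed the mean of the standardized log2 CPM of Dclk1, Trpm5, Avil, Pou2f3 and Sh2d6 most closely over the 12 libraries (mean of at least 1 CPM) were, with Pearson r, Plcb2 (0.941), Mblac2 (0.913), Sh2d7 (0.900), Pygl (0.872), Spib (0.871), Rcor3 (0.866), Dtx3 (0.865), Def6 (0.865) and Pik3r5 (0.863). Of these 10, 6 were on the further tuft lists, which held 39 of the 11630 candidates (0.335%). The libraries share the 4 groups, so r here mixes differences between groups with those within them, and it is given as a description. Spib, a transcription factor, had a log2 fold change of -0.59 over both AOS levels (adjusted p = 0.0535, edgeR). Rcor3, a corepressor subunit, fell by 0.40 (adjusted p = 0.0116, edgeR), and Def6, a guanine nucleotide exchange factor, by 0.89 (adjusted p = 0.0305, edgeR). Tuba1a, a tubulin of the further tuft lists named here after its value was seen, had an estimate of -3.30 in B+A10 against AOS10 and was not called (adjusted p = 0.114, edgeR).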
